A study of Drosophila melanogaster with 12 samples.

Results

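The polysome-to-input shift asks how an mRNA is divided between the polysome fraction and the whole lysate in ovaries enriched for differentiating cysts, relative to ovaries of young females that hold germaria and early egg chambers. It was computed on 8 of the 12 libraries of the series, chosen by their labels: 2 polysome and 2 input libraries of the cyst control (bam RNAi;hs-bam) and 2 polysome and 2 input libraries of the germarial control (UAS-Dcr2;nosGAL4, YWT). The remaining libraries carry germline RNAi of Nop60B and were left out of the contrast. In the cyst control, nosGAL4 drives bam RNAi in the germline, and a heat-shock promoter then restores bam in heat-shocked females, whereas YWT females were dissected soon after eclosion without heat shock. Age, heat shock and germline stage therefore differ together between the controls and cannot be told apart. Both controls carry nosGAL4, and each library came from the pooled ovaries of many females. From every lysate 20% was kept as input, so that each polysome library could be divided by the input of its own lysate.

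Actively translated mRNAs carry several ribosomes and sediment deep in a sucrose gradient, while free mRNAs stay near the top. The polysome-to-input ratio of an mRNA is therefore a measure of its loading with ribosomes, and the number of ribosomes an mRNA can hold grows with the length of its coding sequence. In the Drosophila germarium a stem cell daughter divides into an interconnected cyst, from which an oocyte is specified, and Bam starts this program. Ribosomal protein mRNAs are a classical case of translational control: in flies, as in mammals, many begin with a pyrimidine-rich stretch through which the TOR pathway adjusts their entry into polysomes. Whole ovaries also hold follicle cells and muscle sheath, and in bulk libraries a smaller number of cells and less RNA per cell cannot be told apart.

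The libraries held between 2780781 and 21626125 counts, and the shallowest was polysome replicate 1 of the cyst control. A gene's polysome-to-input ratio is given below as a difference of log2 CPM, counts relative to library size after TMM scaling, with a prior count of 2. Over 6771 genes with a mean of at least 10 CPM, the ratio had an SD of 2.33 in cyst lysate 1 and 0.524 in cyst lysate 2, against 0.573 and 0.452 in germarial lysates 1 and 2. In cyst lysate 1 polysomes and input differed at least 4-fold for 2014 genes, and in cyst lysate 2 for 10, against 59 and 23 genes in the germarial lysates. Cyst lysate 1 thus stood apart, and its ratios correlated with those of cyst lysate 2 at a Pearson r of -0.0641 across these genes, against 0.387 between the germarial lysates. The titles of its libraries also follow another pattern than those of cyst lysate 2. Whether they were made in another run is not given in the sources used here. The cyst inputs also differed from each other in markers. The germline mRNA osk stood at 13.5 and 628 CPM in cyst inputs 1 and 2, against 1930 and 1480 CPM in the germarial inputs. Other germline mRNAs differed less between the cyst inputs. There aub was at 70.8 and 163 CPM, orb at 86.7 and 260 CPM, and piwi, the other way, at 353 and 257 CPM. For bam the cyst inputs held 89.2 and 321 CPM, against 40.7 and 37.8 CPM in the germarial inputs. The 33 measured muscle sheath genes summed to 31700 and 8040 CPM in the cyst inputs, against 9830 and 11100 CPM in the germarial inputs. Hsp23, a small heat shock protein, was at 12100 and 5370 CPM in the cyst inputs against 11.1 and 27.3 CPM in the germarial inputs. The part of these differences in the shift was not tested. The leading groups of genes below are given for every lysate and with each cyst lysate alone.

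**Figure D1:**
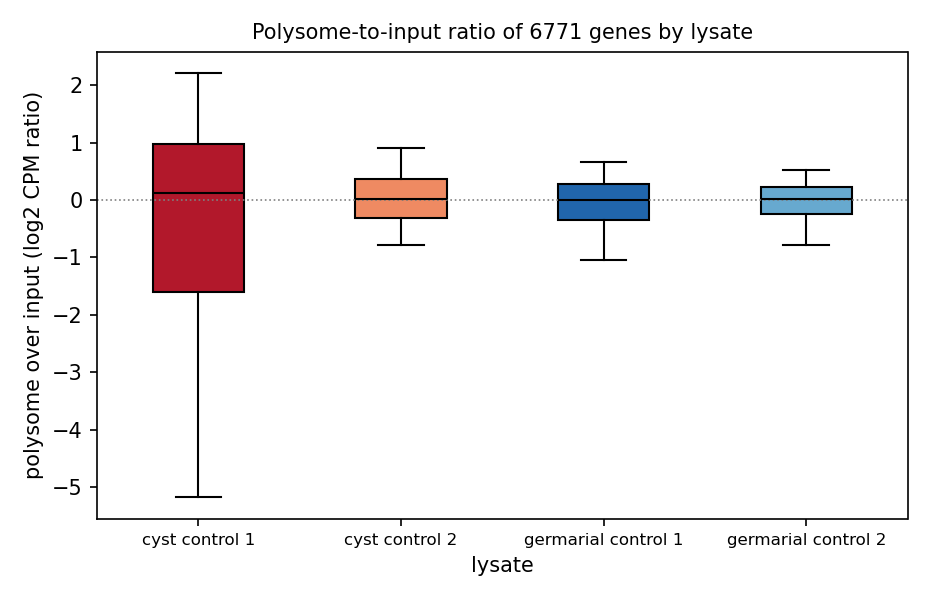
Log2 ratio of polysome over input CPM for 6771 genes with a mean of at least 10 CPM, by lysate. Boxes span the quartiles with the median as a line, and whiskers reach the 5th and 95th percentiles. Cyst lysate 1 spans the widest range (SD 2.33), and the other lysates lie between 0.452 and 0.573.

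Few single genes passed in the shift. By edgeR's quasi-likelihood test on 9250 genes and the criterion of the study (at least 2-fold, unadjusted P below 0.05), 48 genes (0.519% of those tested) had a higher polysome-to-input ratio in the cyst control than in the germarial control, and 7 (0.0757%) a lower one. With upper-quartile scaling these counts were 32 and 11. In the main fit 41 of the 48 and 6 of the 7 encode proteins, and the others include noncoding RNAs. Counts of mRNAs that pass, here and below, cover all genes tested. An unadjusted P under 0.05 was reached by 55 genes (0.595%), the smallest P was 0.00747, and none passed a Benjamini-Hochberg adjusted p of 0.05, since every adjusted p was 1. Passing below therefore means the unadjusted criterion, and the named genes that passed had an unadjusted P between 0.00747 and 0.0470. Polysomes were also set against input in each control, by contrasts of the same fit. In the cyst control 233 mRNAs (2.52%) were higher and 46 (0.497%) lower, and in the germarial control 1 (0.0108%) and 91 (0.984%). None of these passed after adjustment, and 339 (3.66%) and 105 (1.14%) had an unadjusted P under 0.05. The fit estimates spread from the libraries of both controls, so neither count rests on its own control alone. With DESeq2 the counts were 432 and 193 in the cyst control against 2 and 115 in the germarial control. With limma voom and quality weights they were 20 and 11 against 40 and 436, so the order of the controls depended on the tool. Leaving out a lysate leaves its control with 1 library per fraction, which is then assumed to vary like the libraries of the other control, and the counts changed with it. Without cyst lysate 1 324 mRNAs were higher and 76 lower in the shift, and without cyst lysate 2 the counts were 1288 and 2561. With a germarial lysate left out they were smaller, with 6 higher and 0 lower without lysate 1, and 18 and 0 without lysate 2. With each lysate fitted as a block, which pairs a polysome library with its own input, 72 were higher and 11 lower.

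Sec61gamma, CG12237 and CG17385 passed with more in polysomes than in input in both cyst lysates and less in both germarial lysates. Sec61gamma, the small subunit of the channel that carries new proteins into the endoplasmic reticulum (FBgn0031049, dm6 chrX:19643327-19644518), stood at 155 and 121 CPM in cyst polysomes over 64 and 56.9 CPM in cyst inputs, against 193 and 205 CPM in germarial polysomes over 227 and 250 CPM in germarial inputs. Its shift was 1.45 on the log2 scale (SE 0.43). CG12237, which lies beside Sec61gamma on the opposite strand without a shared exon, stood at 140 and 85 CPM in cyst polysomes over 36.7 and 45 CPM in cyst inputs, against 151 and 122 CPM in germarial polysomes over 173 and 154 CPM in germarial inputs, a shift of 1.72 (SE 0.53). CG17385 differed from these in that its level was also high in cyst polysomes, at 285 and 182 CPM over 102 and 110 CPM in cyst inputs, against 98.4 and 130 CPM in germarial polysomes over 147 and 169 CPM in germarial inputs. Its shift was 1.60 (SE 0.50). CG12071, Sec61gamma, CG12237 and CG17385 kept their call in all 9 other settings of scaling, filter, tool, library set, pairing and depth. With 1 library or lysate left out CG12071 kept it in 12 of 12 fits, Sec61gamma in 7 of 12, and CG12237 and CG17385 in 8 of 12 each, the lost ones all being fits without a germarial library or lysate. For CG12071 the germarial polysomes held 0 counts, so no germarial ratio was measured. Its kept call is therefore no sign of a stable ratio. The list of 21 genes of translocation and folding in the endoplasmic reticulum, which holds Sec61gamma, had a median shift of -0.132. Over all genes with a mean of at least 10 CPM the median was 0.144. Without overlap between the lysates of the controls, 4 of the list were higher (19%) and 3 lower (14.3%). These shares are close to the 19.8% and 13.8% of all genes at that level.

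Some genes that passed had no count in germarial polysomes, so that no ratio was measured there and the fitted shift is not a size. CG12071 had 104 and 13.9 CPM in cyst polysomes over 24.9 and 19 CPM in cyst inputs, against 0 counts in both germarial polysome libraries and 5 and 4 counts in the germarial inputs. In polysomes it was at least 376-fold higher in the cyst control, with 3 counts per library as the floor, and at least 88.7-fold with cyst polysome replicate 2 alone. By the same floor CG15890 was at least 252-fold higher in cyst polysomes, Nox, an NADPH oxidase, at least 153-fold, and lncRNA:CR43656, at 67.7 and 7.82 CPM in cyst polysomes, at least 240-fold, or at least 49.8-fold with replicate 2 alone. These bounds compare levels in polysomes and are not ratios to input. In cyst inputs CG15890 stood at 4.29 and 2.17 CPM, Nox at 31.3 and 38 CPM, and lncRNA:CR43656 at 3.54 and 6.4 CPM. The log2 ratios in cyst lysates 1 and 2 were 4.14 and -1.02 for CG15890, -1.87 and 0.05 for Nox, and 4.2 and 0.28 for lncRNA:CR43656. Their germarial inputs held at most 11 counts, and in cyst polysomes CG15890 stood at 78.4 and 0.992 CPM, so that its bound is 6.31-fold with replicate 2 alone. Nox was the reverse, at 8.46 and 39.5 CPM in cyst polysomes, with a bound of 53.8-fold with replicate 1 alone. comm2, of the commissureless family of axon guidance genes in the fly embryo, rested on cyst polysome replicate 1 in the same way, with 110 and 3.75 CPM in cyst polysomes over 0.932 and 2.6 CPM in cyst inputs, against 3.36 and 1.97 CPM in germarial polysomes over 5.47 and 3.78 CPM in germarial inputs (shift 5.78, SE 2.05). Smyd5, of a lysine methyltransferase family, was at 122 and 63.5 CPM in cyst polysomes over 21.2 and 33.8 CPM in cyst inputs, against 123 and 158 CPM in germarial polysomes over 139 and 137 CPM in germarial inputs (shift 1.71, SE 0.62). FBgn0030294, an identifier not named here, had a shift of 1.30 (SE 0.46).

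At a mean of at least 10 CPM 36 of 6771 genes (0.532%) passed as higher and 2 (0.0295%) as lower, Sap-r and CG7878. Sap-r, the precursor of lysosomal saposins (FBgn0000416), stood at 588 and 524 CPM in cyst polysomes over 1260 and 1120 CPM in cyst inputs, against 873 and 705 CPM in germarial polysomes over 803 and 682 CPM in germarial inputs. Its log2 ratio was -1.10 and -1.10 in the cyst lysates against 0.12 and 0.05 in the germarial lysates, and the lysates of each control lay close together. The shift was -1.19 (SE 0.44). CG7878 was at 93.1 and 115 CPM in cyst polysomes over 160 and 150 CPM in cyst inputs, against 417 and 444 CPM in germarial polysomes over 260 and 354 CPM in germarial inputs. It thus changed sides, with less in polysomes than in input in both cyst lysates and more in both germarial lysates, and its shift was -1.06 (SE 0.44).

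**Figure D2:**
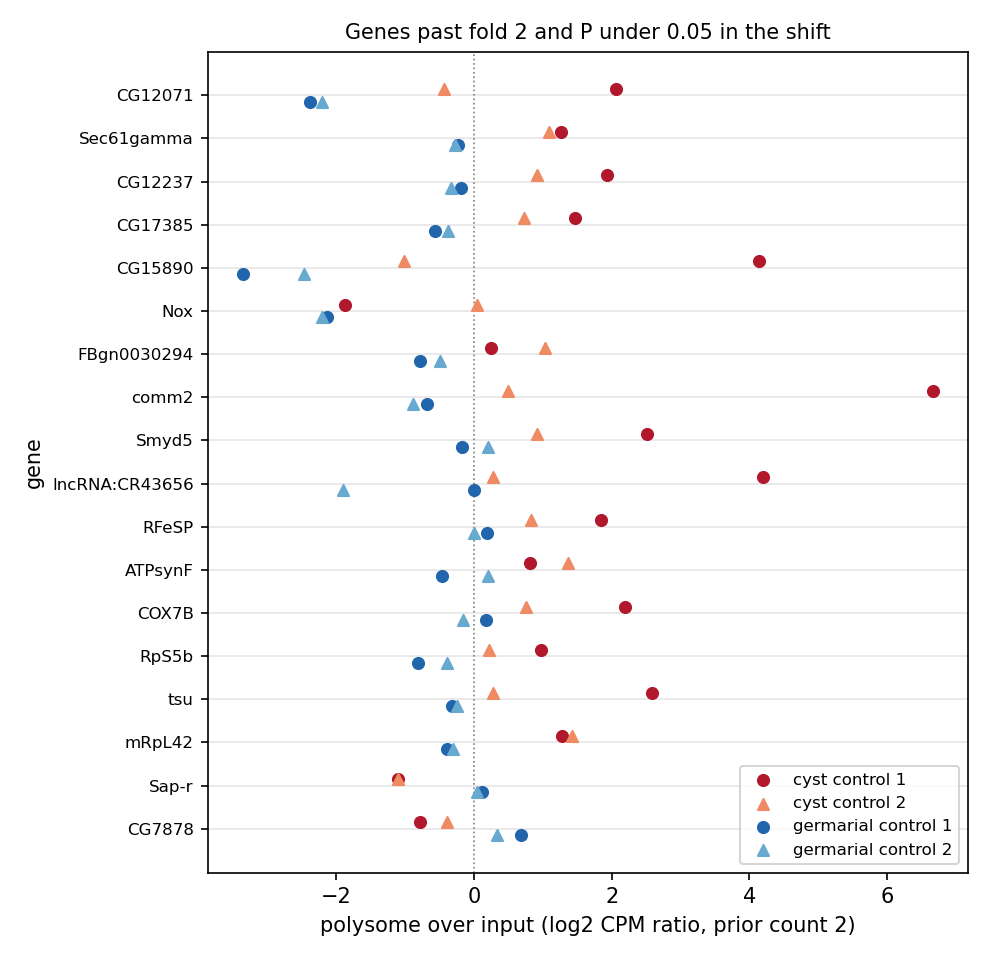
Log2 ratio of polysome over input CPM (prior count of 2) in each lysate for 18 named genes past a fold change of 2 and an unadjusted P of 0.05, cyst lysates above germarial lysates in each row. The 16 genes from CG12071 to mRpL42 have both cyst values to the right of both germarial values, and Sap-r and CG7878 have them to the left. For CG12071, CG15890, Nox and lncRNA:CR43656 the germarial polysomes held 0 counts, and their position depends on the prior count.

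Ribosomal protein mRNAs leaned to higher ratios in the cyst control, although 1 passed singly. The tables list 88 cytoplasmic ribosomal protein genes, of which 84 were tested, and RpS5b passed. Over the 82 with a mean of at least 10 CPM the median shift was 0.597, against 0.144 over all genes at that level, and 80 of the 82 had a shift above 0, against 58.2% of all genes. The polysome-to-input ratio was higher in both cyst lysates than in both germarial lysates for 53 of them and lower for 0, where 19.8% and 13.8% of all 6771 genes had ratios that did not overlap in these directions. The median log2 ratio of the group was -0.233 and -0.411 in cyst lysates 1 and 2, against -0.69 and -1.13 in germarial lysates 1 and 2. Ribosomal protein mRNAs thus had a negative median ratio in every lysate, less so in the cyst control. With cyst lysate 2 alone set against both germarial lysates, 65 of 82 were higher (79.3%, against 39.4% of all genes), and with cyst lysate 1 alone 70 were (85.4%, against 50% of all genes). The excess of the group's median over that of all genes was 0.453, and it moved by over 1.5 times with single libraries or lysates: it was 0.167 without cyst polysome replicate 1, 0.798 without cyst polysome replicate 2, 0.18 without cyst input replicate 2, 0.224 without germarial polysome replicate 2, 0.715 without germarial lysate 1 and 0.189 without germarial lysate 2. The large subunit (median shift 0.602, 47 genes) and the small subunit (0.592, 35 genes) had close medians. In the Nop60B RNAi lysates, which are not part of the contrast, the group's median ratio was -1.01 and -0.702. The group was lower in the cyst control in both fractions, with a median log2 difference of -0.734 in polysomes and -1.29 in input, so that the gap between the controls was smaller in polysomes.

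RpS5b, a small subunit protein enriched in the germline, was the single member that passed (FBgn0038277, dm6 chr3R:14900432-14901563). It stood at 711 and 567 CPM in cyst polysomes over 361 and 490 CPM in cyst inputs, against 996 and 1230 CPM in germarial polysomes over 1750 and 1620 CPM in germarial inputs. Its shift was 1.19 (SE 0.47), above the median of its group. The most abundant member, sta, which encodes the small subunit protein SA, was at 2380 and 2620 CPM in cyst polysomes over 3030 and 2960 CPM in cyst inputs, against 5140 and 4840 CPM in germarial polysomes over 11300 and 10600 CPM in germarial inputs. Replicates of sta lay close together in each fraction and control, and its shift of 0.87 (SE 0.49) missed the threshold. RpL3, with a long coding sequence for the group at 1248 nt, had log2 ratios of -0.06 and 0.09 in the cyst lysates against -0.06 and 0.06 in the germarial lysates, a shift of 0.03. RpS20 was low in polysomes in every lysate, at -1.57 and -1.51 in the cyst lysates against -1.81 and -1.72 in the germarial lysates. RpL8 stood at 0.05 and 0.39 in the cyst lysates against -0.57 and -0.67 in the germarial lysates. RpS19b, a germline paralog of RpS19, was at 317 and 65 CPM in cyst polysomes over 213 and 33 CPM in cyst inputs, against 18 and 14 CPM in germarial polysomes over 11.2 and 17 CPM in germarial inputs. Its levels differed between the controls in both fractions and its shift of 0.45 did not pass (SE 1.31). Reads of such paralogs may be shared in the counting, and the treatment of reads with several alignments is not given in the sources used here.

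The start of these genes was read because fly ribosomal protein mRNAs begin with pyrimidines. In a window of 30 bases, from 10 before to 20 after the annotated start of the canonical transcript (Ensembl release 115, sequence from the RefSeq dm6 genome), TCTTT on the transcribed strand was found in 45 of 82 ribosomal protein genes (54.9%), in 1 of 63 respiratory chain and ATP synthase genes (1.59%) and in 267 of 6557 coding genes with a mean of at least 10 CPM (4.07%). The motif was searched on that strand only. Ribosomal protein genes with the motif had a median shift of 0.64 and those without it 0.554, and this difference was not tested. Over all coding genes the medians were 0.324 for 267 genes with it and 0.137 for 6290 without it. The 267 include the 45 ribosomal protein genes, so the 2 comparisons are not separate. RpS5b, RpL8 and RpL3 are shown as members that hold the motif and differ in shift, sta as a member without it, eEF2, the translation elongation factor with a shift of -0.01, as a gene with the motif outside the group, and RFeSP and COX7B as respiratory chain genes that passed without it. Capitals mark TCTTT.
RpS5b, chr3R:14901544-14901573, minus strand: cttttaccgttTCTTTttcatccTCTTTct
RpL8, chr3L:2587446-2587475, plus strand: gtcttccTCTTTTCTTTTCTTTtcgccccg
RpL3, chr3R:11221884-11221913, plus strand: gtcggaatcgttTCTTTtccgttttacacg
sta, chrX:1483273-1483302, minus strand: cccggaaatcggccattttgtcaaaactcc
eEF2, chr2L:21682097-21682126, minus strand: tgcagcgcctcgcTCTTTcctgtcgaaacg
RFeSP, chr2L:1614141-1614170, minus strand: tcacccacttgagtgcggtcacactggttc
COX7B, chr3L:17425467-17425496, plus strand: tattctataacaacacaacggtcacactgt

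mRNAs for the respiratory chain and ATP synthase, which make most of the cell's ATP and are encoded in the nucleus for the subunits counted here, also leaned to higher ratios in the cyst control. Of 69 tested members 4 passed, RFeSP, ATPsynF, COX7B and ND-PDSW, all higher, and 0 lower, where 0.519% and 0.0757% of all genes passed in these directions. Over the 63 with a mean of at least 10 CPM the median shift was 0.608, 55 were above 0, and the lysate ratios were higher without overlap for 38 and lower for 0, against 19.8% and 13.8% of all genes. The group's median log2 ratio was 0.617 and 0.818 in the cyst lysates, against 0.19 and 0.0925 in the germarial lysates, and -0.327 and 0.261 in the Nop60B RNAi lysates. Unlike ribosomal protein mRNAs these mRNAs had a positive median ratio in every lysate of both controls, higher in the cyst control. With cyst lysate 2 alone, 55 of 63 lay above both germarial lysates (87.3%, against 39.4% of all genes) and 2 below. With cyst lysate 1 alone 42 lay above (66.7%, against 50% of all genes) and 14 below (22.2%, against 41.3%). The excess of the group's median over that of all genes was 0.464, and 0.285 without cyst input replicate 2. By complex the median shift was 0.57 for 32 subunits of complex I, 0.812 for 8 of complex III, 0.806 for 8 of complex IV and 0.589 for 11 of ATP synthase, and 0.297 for the 4 subunits of complex II. As for ribosomal proteins, the group was lower in the cyst control in both fractions, with a median log2 difference of -0.978 in polysomes and -1.58 in input.

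RFeSP, the Rieske iron-sulfur protein of complex III (FBgn0021906), stood at 268 and 192 CPM in cyst polysomes over 74.2 and 108 CPM in cyst inputs, against 403 and 381 CPM in germarial polysomes over 353 and 381 CPM in germarial inputs, a shift of 1.24 (SE 0.48). Polysomes held more than input in both cyst lysates and about as much as input in both germarial lysates. ATPsynF was at 184 and 205 CPM in cyst polysomes over 104 and 79.5 CPM in cyst inputs, against 277 and 388 CPM in germarial polysomes over 382 and 337 CPM in germarial inputs (shift 1.20, SE 0.46). COX7B, of complex IV, was at 470 and 182 CPM in cyst polysomes over 103 and 107 CPM in cyst inputs, against 296 and 305 CPM in germarial polysomes over 262 and 340 CPM in germarial inputs (shift 1.63, SE 0.64). Cyst polysome replicate 1 was the higher of the pair for RFeSP and COX7B but not for ATPsynF. ND-PDSW, of complex I and the fourth by P in its list, had log2 ratios of 0.59 and 0.88 in the cyst lysates against -0.33 and -0.39 in the germarial lysates (shift 1.08, SE 0.44). RFeSP shares 148 exon bases with CG14352 on the opposite strand, and the strand setting of the counting is not given in the sources used here. The most abundant member, ATPsynC, showed no such separation: its ratios were 0.86 and -0.07 in the cyst lysates against 0.22 and -0.15 in the germarial lysates (shift 0.48, SE 0.69).

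mRNAs of the mitotic cell cycle and DNA replication leaned the other way. None of 66 tested members passed in either direction. Over the 65 with a mean of at least 10 CPM the median shift was -0.19, and the lysate ratios were lower without overlap in the cyst control for 23 (35.4%) and higher for 5 (7.69%), against 13.8% and 19.8% of all genes. The median ratio was -0.0792 and -0.201 in the cyst lysates, against 0.0919 and 0.114 in the germarial lysates. With cyst lysate 2 alone 44 of 65 were lower (67.7%, against 34.3% of all genes) and 9 higher. With cyst lysate 1 alone 32 were lower (49.2%, against 41.3% of all genes) and 28 higher (43.1%, against 50%). By these counts the separation was smaller in cyst lysate 1. Minus that of all genes, the median shift of the list was -0.334. It was -0.302 without cyst lysate 1 and -0.282 without cyst lysate 2. Without cyst polysome replicate 1 it was -0.0391, and without cyst polysome replicate 2 -0.698. SMC2, a condensin subunit, had log2 ratios of -1.68 and -0.90 in the cyst lysates against -0.40 and -0.27 in the germarial lysates (shift -0.85, SE 0.64), and BubR1, a spindle checkpoint kinase, -0.37 and -0.62 against -0.01 and 0.41 (shift -0.71, SE 0.57). In cyst lysate 1 several members were nearly missing from polysomes, among them Cdk1 at 5.79 CPM over 91.4 CPM in input. Members higher without overlap were CycA, CycB, E2f1, PolE1 and Psf2. CycB had ratios of 1.05 and -0.24 in the cyst lysates against -1.30 and -0.65 in the germarial lysates, and CycA 1.19 and -0.60 against -1.21 and -0.61, where cyst lysate 2 barely cleared germarial lysate 2, while CycE was lower without overlap and CycD overlapped. SMC2, BubR1, Cdk1 and the members other than CycB, like RpL3, RpL8 and RpS20 among the ribosomal proteins, were chosen after their values were seen. The median of this list was 0.119 above that of all genes without cyst input replicate 2.

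**Figure D3:**
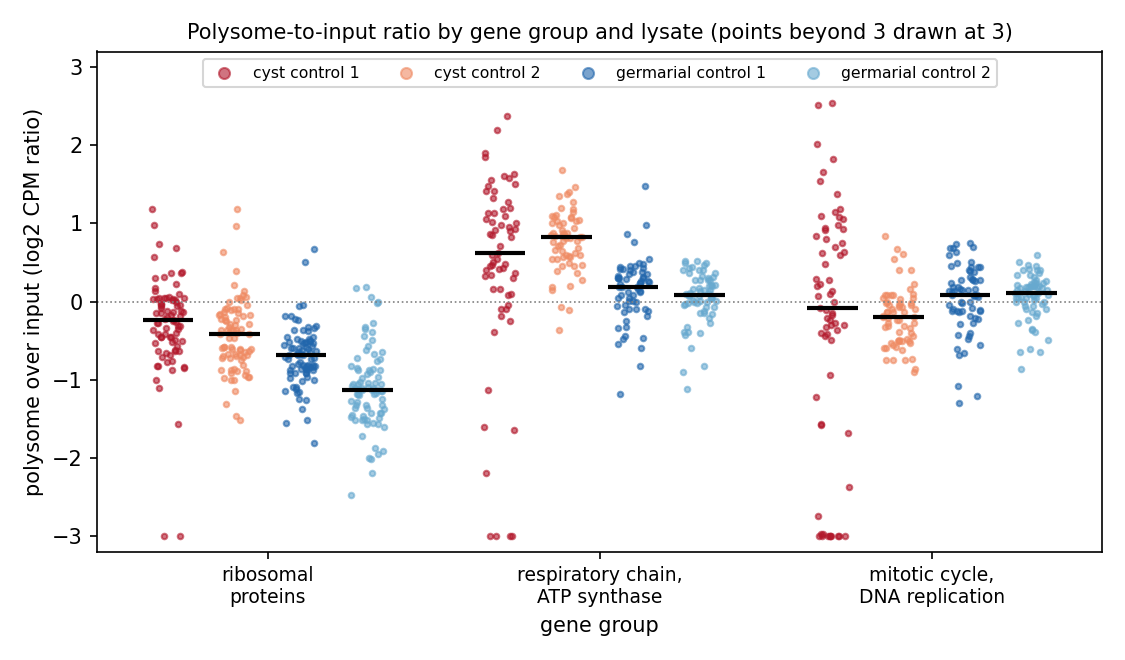
Log2 ratio of polysome over input CPM of single genes with a mean of at least 10 CPM in 3 groups, by lysate, with medians as black lines and 14 values beyond 3 drawn at that limit. Ribosomal protein medians are -0.233 and -0.411 in the cyst lysates against -0.69 and -1.13 in the germarial lysates, respiratory chain medians 0.617 and 0.818 against 0.19 and 0.0925, and mitotic medians -0.0792 and -0.201 against 0.0919 and 0.114.

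Ribosomal protein and respiratory chain mRNAs are short, with median coding lengths of 468 and 471 nt against 1452 nt over all genes with a mean of at least 10 CPM and 1850 nt in the mitotic list, and the shift was therefore set against the longest annotated coding sequence of each gene. Short coding sequences leaned to higher ratios in the cyst control. The 459 genes with up to 450 nt had a median shift of 0.594, and their lysate ratios were higher in the cyst control without overlap for 216 (47.1%) and lower for 8 (1.74%). Over all genes with a mean of at least 10 CPM these shares were 19.8% and 13.8%. The median shift was 0.367 for 1254 genes of 451 to 900 nt, 0.171 for 2323 genes of 901 to 1800 nt, -0.0379 for 1731 genes of 1801 to 3600 nt and 0.0118 for 791 longer genes. From 1801 to 3600 nt more genes were lower without overlap (375, 21.7%) than higher (184, 10.6%). In the fitted shift the decrease with length thus ended at this class, and the longest genes did not continue it. The cyst lysates disagreed there. From this class to the longest genes the median ratio fell from 0.0498 to -0.256 in cyst lysate 1. In cyst lysate 2 it rose from -0.177 to -0.0432. For the longest genes it was -0.116 and -0.103 in the germarial lysates.

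Both cyst lysates had higher medians for the shortest class than for the class from 1801 to 3600 nt, and both germarial lysates lower ones. For the shortest class the median ratio was 0.369 and 0.589 in the cyst lysates, against -0.0361 and -0.0725 in the germarial lysates. For the class from 1801 to 3600 nt it was 0.0498 and -0.177 in the cyst lysates, against -0.00264 and 0.0259 in the germarial lysates. Over 6558 coding genes the Spearman correlation of ratio and coding length was -0.118 and -0.345 in cyst lysates 1 and 2, against -0.0726 and -0.0531 in the germarial lysates, as a description across genes that share their libraries. With cyst lysate 2 alone, 372 of the 459 shortest lay above both germarial lysates (81%) and 25 below (5.45%), against 22.1% above and 48.9% below from 1801 to 3600 nt and 39.4% above and 34.3% below over all genes. With cyst lysate 1 alone 264 lay above (57.5%, against 50% of all genes) and 161 below (35.1%, against 41.3%), a smaller separation. The excess of the class median over that of all genes was 0.451, and it was 0.279 without cyst polysome replicate 1, 0.78 without cyst input replicate 1 and 0.165 without cyst input replicate 2. Without cytoplasmic and mitochondrial ribosomal proteins and the respiratory chain, 381 genes of up to 450 nt had a median shift of 0.566. Of these 171 (44.9%) were higher and 8 (2.1%) lower without overlap, against 19.8% and 13.8% of all genes. In the Nop60B RNAi lysates the median ratio of the shortest class was -0.841 and -0.58. Mitochondrial ribosomal proteins are nearly as short, with a median of 584 nt, yet their median shift was 0.0617, with ratios of -0.218 and 0.441 in the cyst lysates against 0.0601 and 0.237 in the germarial lysates. Among them mRpL42 passed (shift 1.71, SE 0.73). Genes encoding a run of 5 or more glutamines, 660 at this level, had a median shift of 0.193 against 0.14 for 5898 coding genes without one, and 20% and 19.8% were higher without overlap.

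**Figure D4:**
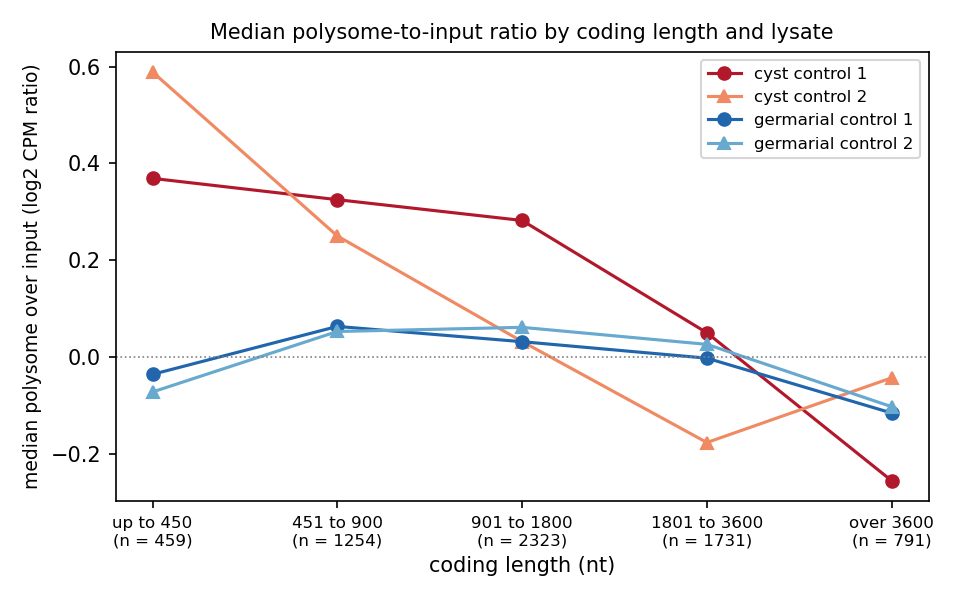
Median log2 ratio of polysome over input CPM by class of coding length, for each lysate, over genes with a mean of at least 10 CPM. The cyst lysates start at 0.369 and 0.589 for up to 450 nt and lie at 0.0498 and -0.177 from 1801 to 3600 nt, whereas the germarial lysates stay between -0.116 and 0.063.

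Egg chamber genes were described with their levels, since the cyst control held more of them. The 36 tested yolk, vitelline membrane and chorion genes summed to 8370 and 8090 CPM in cyst polysomes over 4680 and 6220 CPM in cyst inputs, against 1850 and 2200 CPM in germarial polysomes over 1840 and 2040 CPM in germarial inputs, and 34 of the 36 were higher in the cyst input by the fit. Over 24 of them with a mean of at least 10 CPM the median shift was 0.973, with 7 higher (29.2%) and 1 lower (4.17%) without overlap, against 19.8% and 13.8% of all genes, and ratios of 1.26 and 0.378 in the cyst lysates against 0 and -0.132 in the germarial lysates. None passed, and Yp2, a yolk protein, had a shift of -0.16. Long noncoding RNAs and snoRNA host genes had a negative median ratio in every lysate, though only slightly so in cyst lysate 2. Over 38 at this level it was -1.51 and -0.206 in the cyst lysates against -1.10 and -0.912 in the germarial lysates, and 12 were higher (31.6%) and 2 lower (5.26%) without overlap. Localized oocyte axis mRNAs had 9 of 27 higher (33.3%) and 2 lower (7.41%) without overlap, with medians of 0.146 and -0.244 in the cyst lysates against -0.393 and -0.168 in the germarial lysates. tsu, the Y14 subunit of the exon junction complex that is needed to localize oskar mRNA, passed among them with log2 ratios of 2.58 and 0.28 in the cyst lysates against -0.32 and -0.25 in the germarial lysates (shift 2.02, SE 0.84), and cyst lysate 1 was far the higher of the pair.

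Lists with more genes lower than higher without overlap included the piRNA pathway, which silences transposons in the germline (13 lower, 34.2%, and 4 higher of 38), escort and follicle cell genes (10, 22.2%, and 5 of 45) and the basement membrane (5, 27.8%, and 1 of 18), where 13.8% of all genes were lower and 19.8% higher. In the piRNA list the cyst lysates disagreed, with medians of 0.338 and -0.238 against -0.0225 and 0.0859 in the germarial lysates. Basement membrane mRNAs had medians of -0.0637 and -0.348 in the cyst lysates against 0.109 and 0.00647 in the germarial lysates, and LanB1, a laminin chain chosen after its values were seen, stood at -1.17 and -1.01 against -0.17 and -0.35 (shift -0.88, SE 0.79). Heat shock and chaperone mRNAs were abundant in the cyst control in both fractions, but 2 of 24 were higher and 1 lower without overlap and none passed. Hsp23 had ratios of 1.42 and 0.33 in the cyst lysates against 0.84 and 0.09 in the germarial lysates (shift 0.81, SE 1.13), and Hsp83, the Hsp90 chaperone, -0.13 and -0.56 against -0.17 and 0.01 (shift -0.29, SE 0.52). For the other lists, read against the same 19.8% and 13.8%, the counts higher and lower without overlap were 8 and 5 of 41 translation factors (19.5% and 12.2%), 4 and 6 of 31 proteasome subunits, 5 and 2 of 29 stress and TOR pathway genes, 4 and 5 of 30 H/ACA and nucleolar genes, 2 and 5 of 36 regulators of the transition from stem cell to oocyte, 5 and 6 of 35 meiotic genes, 1 and 0 of 12 hemocyte and fat body markers, and 5 and 1 of 29 muscle genes. mRNAs encoded by the mitochondrial genome were not tested, since none passed the expression filter.

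Of the mRNAs the study follows that were read here, none passed apart from RpS5b. Aramis, which the study also follows, is not given here. Nop60B, the catalytic subunit of the H/ACA complex that makes pseudouridine in ribosomal RNA, was at 552 and 480 CPM in cyst polysomes over 303 and 671 CPM in cyst inputs, against 2000 and 1710 CPM in germarial polysomes over 1620 and 1850 CPM in germarial inputs. Its level was lower in the cyst control in both fractions, and its shift was -0.01 (SE 0.60). Of the other subunits, NHP2 had ratios of 0.78 and 1.05 in the cyst lysates against 0.45 and 0.36 in the germarial lysates (shift 0.49, SE 0.49), and Gar1 0.98 and -0.19 against 0.31 and -0.18 (shift 0.60, SE 0.87). Nop10 had ratios of -5.19 and 1.63 in the cyst lysates against 1.41 and 0.69 in the germarial lysates (shift -1.83, SE 1.92), with the cyst lysates on opposite sides of the germarial ones. Rbfox1, an RNA-binding protein of cyst differentiation, was at 351 and 41.7 CPM in cyst polysomes over 219 and 66.5 CPM in cyst inputs, against 94.6 and 45.7 CPM in germarial polysomes over 84 and 84.9 CPM in germarial inputs. The lysates of each control differed more than the controls did for it, and its shift was 0.72 (SE 1.31). bru1, a translational repressor, had a shift of 0.23 (SE 0.76), bam of 0.11 (SE 0.86), and the synaptonemal complex genes c(3)G and cona of -0.15 (SE 0.67) and -0.73 (SE 0.97). raptor, a subunit of the TOR kinase complex, had ratios of -4.17 and 0.75 in the cyst lysates against -0.19 and -0.35 in the germarial lysates, so that the cyst lysates lay on opposite sides of the germarial ones, and its shift of 0.42 (SE 1.88) was -4.25 without cyst lysate 2. It shares 1669 exon bases with Mipp2 on the same strand, so that reads of the pair may not be told apart. Non3, a ribosome biogenesis factor that the paper's text does not name, was lower in both cyst lysates, at -2.90 and -0.18 against -0.11 and 0.30. Its shift was -0.63 (SE 1.36). With standard errors of 0.60 to 1.88 for Nop60B, Rbfox1, bru1, bam, c(3)G, cona, raptor and Non3, a 2-fold shift would not have passed for these mRNAs with 2 lysates per control.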

How the data were processed

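Polysome and input libraries from the cyst and germarial controls were compared (2 lysates each). The authors aligned reads of poly(A)-selected RNA to dm6 with HISAT2 2.1.0, counted them with featureCounts 1.4.6 and deposited counts that were not normalized, 1 table a library with 17023 FlyBase genes. The strand setting and the handling of reads with several alignments are not given in the sources used here. Totals of 2780781 to 21626125 counts set the precision, and reads without molecular identifiers make floors cover counting error only. The deposited counts were analysed in R 4.3.3 with edgeR 4.0.16 (filterByExpr over 4 groups, 9250 genes kept, TMM, quasi-likelihood test of the shift with 1 mean per group, Benjamini-Hochberg adjustment), after the scripts were tested on simulated data. No test of 2 against 2 lysates by exchange can give a two-sided p under 0.333. Nothing states that the lysates were separate cultures of flies. The main fit does not pair libraries by lysate, so its P values measure the spread between these libraries within a fraction and control.

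Same-numbered input and polysome libraries are paired because the labels' protocol takes the input from the lysate that was loaded. Across genes, replicate differences correlated between input and polysomes at r = 0.426 in the cyst control and 0.00565 in the germarial control. Alternatives used limma 3.58.1 and DESeq2 1.42.0. Named genes were, by rule, the 10 higher and 10 lower with the smallest P among those past the criterion with a mean of at least 10 CPM and lysates that did not overlap (10 and 2 met it, and 1 of the 10 is not reported here), list members past it at that level (at most 3 per list and direction, by P) and the most abundant of each list, and genes the study names. All members and the 21 gene lists were chosen with earlier results of these data known. Positions came from Ensembl release 115, which listed 16647 genes; 376 identifiers are not named here. RpS10b and vas were not analysed, and Non3 was listed with the genes the study names although the paper's text does not name it.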

Additional observations from a re-analysis of the deposited data

Results flagged for a closer look

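The interaction of fraction and control passed a fold change of 2 with an unadjusted P under 0.05, and no adjusted p under 0.05, for 18 named genes, a difference between the cyst and germarial controls in the fitted ratio. The fitted shifts on the log2 scale were 7.42 for CG12071, 1.45 for Sec61gamma, 1.72 for CG12237, 1.60 for CG17385, 10.41 for CG15890, 5.31 for Nox, 1.30 for FBgn0030294, 5.78 for comm2, 1.71 for Smyd5, 7.40 for lncRNA:CR43656, 1.24 for RFeSP, 1.20 for ATPsynF, 1.63 for COX7B, 1.19 for RpS5b, 2.02 for tsu and 1.71 for mRpL42. They were -1.19 for Sap-r and -1.06 for CG7878. For CG12071, CG15890, Nox and lncRNA:CR43656 the germarial polysomes held 0 counts and the germarial inputs at most 11, so that no germarial ratio was measured and the fitted value is no bound.

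For 3 groups of genes the median ratio had one sign in both cyst lysates and the other in both germarial lysates, and this difference was not tested. The median shift was 0.594 for coding sequences up to 450 nt, -0.19 for the mitotic cell cycle and DNA replication, and -0.057 for the basement membrane.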

How the results depend on the processing

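All 18 called genes named here by rule kept their direction in each of 376 refits, and 221 of these kept the call. These genes were picked for a shift past 2-fold in the same data, and their lysate ratios do not overlap between the controls. Their kept direction was therefore close to given by the choice and lends the shifts no support. The counts of genes past the criterion depended on the settings. For the shift, 137 higher and 47 lower genes passed with DESeq2, 27 and 3 with limma voom and quality weights, 140 and 16 without a filter, 82 and 50 with all 12 libraries, and 25 higher with a minimum mean of 10 CPM. Upper-quartile scaling gave 11 lower. With the replicate block by lysate 72 were higher and 11 lower, and 28 of the 55 calls were shared. Polysomes against input in the cyst control gave 131 higher and 76 lower with upper-quartile scaling, 432 and 193 with DESeq2, 20 and 11 with limma voom, 393 and 101 without a filter, 155 higher with a minimum mean of 10 CPM, 164 lower with 12 libraries and 81 lower with the block. In the germarial control the counts were 2 higher with DESeq2 and with the block, 40 higher and 436 lower with limma voom, 4 higher without a filter, 3 higher with 12 libraries, 0 higher and 47 lower after thinning, and 46 lower with a minimum mean of 10 CPM. Leaving out 1 library or lysate gave 6 to 1288 higher and 0 to 2561 lower for the shift, 61 to 1347 and 11 to 2723 in the cyst control, and 0 to 20 and 6 to 222 in the germarial control. Without a filter 1 gene passed an adjusted p of 0.05, and without cyst lysate 2 3553 genes did, in a fit whose spread comes from the germarial lysates alone.

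The median shift of a group minus that of all genes, and the counts without overlap under other settings, were added after seeing the data. The median was 0.453 for ribosomal proteins (0.167 to 0.798 with 1 library or lysate left out), 0.464 for the respiratory chain (0.285 to 0.68, and 0.626 with limma voom), 0.451 for coding sequences up to 450 nt (0.165 to 0.78) and -0.334 for the mitotic list (-0.698 to 0.119). The mitotic median was -0.263 with upper-quartile scaling, -0.0912 with limma voom, -0.277 with a minimum mean of 10 CPM, -0.324 with 12 libraries, -0.27 with the block and -0.287 after thinning, and turned to 0.119 without cyst input replicate 2. Counts without overlap ranged, with 1 lysate left out, from 1943 to 3385 higher and 1475 to 2798 lower over all genes, 0 to 4 lower for ribosomal proteins, 1 to 14 lower for the respiratory chain, 28 to 44 lower for the mitotic list, and 235 to 372 higher and 18 to 161 lower for the shortest coding sequences (17 lower after thinning). Of genes not called, sqd ranged from -1.12 to 1.44 and raptor from -4.53 to 1.4 with 1 library or lysate left out; sqd turned to -1.12 without cyst polysome replicate 1, and raptor to -4.25 without cyst lysate 2 and -4.53 without its polysome library. The median of all genes tested was 0.104 in the shift and -0.0513 with upper-quartile scaling. Cyst polysome replicate 1, with 2780781 counts, limits what low mRNAs can show.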
